A study of Hydra vulgaris with 36 samples.

Results

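In whole Hydra polyps, 64 of the 12410 genes in the deposited table were strongly lower after incubation in DAPT than in the DMSO control, at the end of the incubation (0 h) as well as 3 h and 6 h after DAPT was removed. They were chosen by their own readout. For each gene the count was scaled to the column total as counts-per-million (CPM), and the level L was log2(CPM + 0.5) minus the median of the same column. D is the mean L of the 6 DAPT libraries minus the mean L of the 6 DMSO libraries at a time. A gene was taken when its mean CPM over all 36 libraries was at least 2 and its D was at or under -1.75 at 0 h, 3 h and 6 h, which is a level at least 3.36-fold lower on that scale. All values of DAPT against DMSO in the full set of libraries below are therefore a description of the choice, with no test.

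The animals were Hydra vulgaris of the Basel strain, a freshwater cnidarian polyp. After 24 h without food one set of polyps spent 48 h in medium holding 20 µM DAPT and 1% DMSO, the other in medium holding just 1% DMSO, with fresh solution every 12 h. The groups were DAPT 0 h, DAPT 3 h and DAPT 6 h, set against DMSO 0 h, DMSO 3 h and DMSO 6 h, with 6 biological replicates each and about 25 pooled polyps per sample. Every group, the controls included, had thus been kept in DMSO, and the later DAPT groups spent their last hours in 1% DMSO without DAPT. The design text states the question as which genes are targets of Notch signalling.

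DAPT blocks gamma-secretase, the membrane protease that cuts the Notch receptor once a ligand on a neighbouring cell has bound it. The released intracellular part of Notch enters the nucleus and, together with a DNA-binding partner, switches on target genes such as those of the Hes family of repressors. In Hydra, DAPT is known to disturb the maturation of nematocytes, the stinging cells, and the formation of the boundary between bud and parent. The enzyme also cuts other membrane proteins.

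The genes carry only identifiers in the form given by Trinity, a de novo transcriptome assembler, and none of them was found in the RefSeq gene table used here. No role, sequence or cell type is therefore given for any of the 64 genes, and no cell type markers could be checked. The identifiers are written here without their shared prefix TRINITY_. Each identifier holds a DN number, a c number and a g number. Genes that share both the DN number and the c number are called a component here.

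The treatment stands in the column names as a P or an S, read as DAPT and DMSO because each letter occurs in just one of these words. If the letters stood for the opposite, every DAPT against DMSO direction given here would turn round and the same genes would be higher after DAPT. The libraries held 6617621 to 15310480 counts in DAPT and 5692414 to 14060485 counts in DMSO. No value in the table was 0, so genes that reached 0 in any library are not analysed here. In whole animals, fewer cells of a type and less RNA per cell cannot be told apart.

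The time points had different numbers of strongly lower genes, and the 64 are what they shared. Of the 10405 genes with a mean CPM of at least 2, 113 had a D at or under the limit at 0 h, 96 at 3 h and 96 at 6 h. Of the 113 genes at 0 h, 81 also met the limit at 3 h and 73 at 6 h. The mirror image of the rule, a D at or above the same size on the positive side at all 3 times, held for 13 genes. Over all genes of that abundance the median D was 0.05 (0 h), 0.07 (3 h) and 0.05 (6 h).

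The 64 genes together took up a small part of each library, and that part was lower in every DAPT library than in any DMSO library. At 0 h they held 0.0972% ± 0.0253 of all counts in DAPT and 0.932% ± 0.449 in DMSO (SD, n = 6 each). At 3 h the share was 0.123% ± 0.0664 in DAPT and 0.949% ± 0.470 in DMSO. At 6 h it was 0.154% ± 0.0894 in DAPT and 1.11% ± 0.576 in DMSO. The highest share among the 18 DAPT libraries was 0.313%, in DAPT 6 h, and the lowest among the 18 DMSO libraries was 0.376%, in DMSO 0 h. Single genes weighed heavily in these sums. DN8271_c0_g1, DN744_c2_g1 and DN38600_c0_g1 made up on average 58.8% of the summed CPM of the 64 genes in DAPT libraries and 60.1% in DMSO libraries. Without these 3 genes the summed CPM was 449.7 ± 53.8 in DAPT and 3762 ± 919 in DMSO at 0 h.

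**Figure D1:**
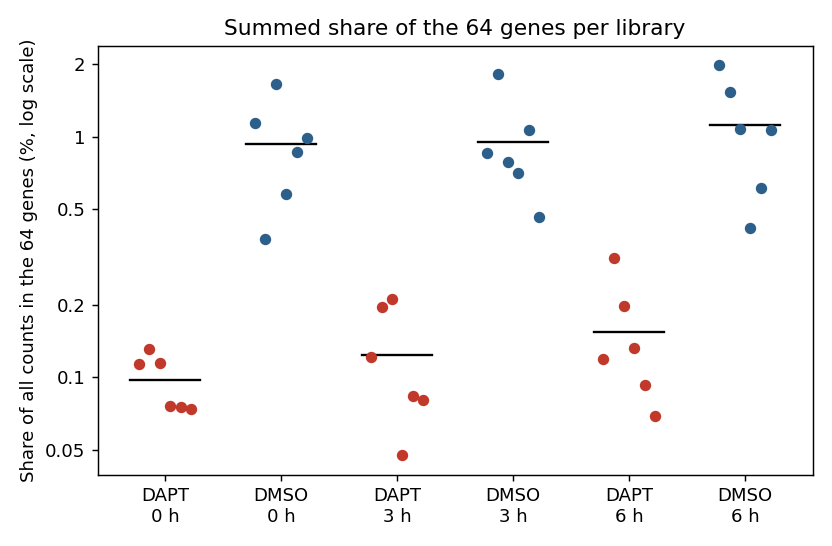
Share of all counts that fell on the 64 genes, in percent on a log axis, for each of the 36 libraries by group, with DAPT groups in red and DMSO groups in blue and a black line at each group mean. The highest DAPT library reached 0.313% and the lowest DMSO library 0.376%.

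The sizes of the differences spread over more than 3 log2 units. At 0 h, D ranged from -5.15 to -1.84 with a median of -2.69. At 3 h it ranged from -5.07 to -1.78 with a median of -2.57, and at 6 h from -4.81 to -1.77 with a median of -2.61. In mean CPM, the median gene kept 12.5% of its DMSO level in DAPT at 0 h, 13.3% at 3 h and 13.2% at 6 h. A D of -3 or less, an 8-fold difference, was found for 21 genes at 0 h, 17 at 3 h and 16 at 6 h. A D of -4 or less was found for 4, 2 and 3 genes at these times.

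For most of the 64 genes the replicates of both treatments were apart in L at each time. All 6 DAPT libraries had a lower L than all 6 DMSO libraries for 63 genes at 0 h, where 3.22% of the 10405 genes did so. The count was 61 at 3 h, beside 3.09% of those genes, and 54 at 6 h, beside 2% of them. It held at all 3 times for 52 genes, beside 1.17% of the 10405 genes. For 46 genes the L of all 18 DAPT libraries lay under that of all 18 DMSO libraries, whatever the time, which was the case for 0.875% of the 10405 genes. edgeR's quasi-likelihood test (Benjamini-Hochberg adjusted p under 0.05 over 12253 genes) called all 64 lower at 0 h, 3 h and 6 h, beside 5.64%, 4.85% and 3.94% of all tested genes. These counts follow from the choice of the genes and are given for completeness.

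**Figure D2:**
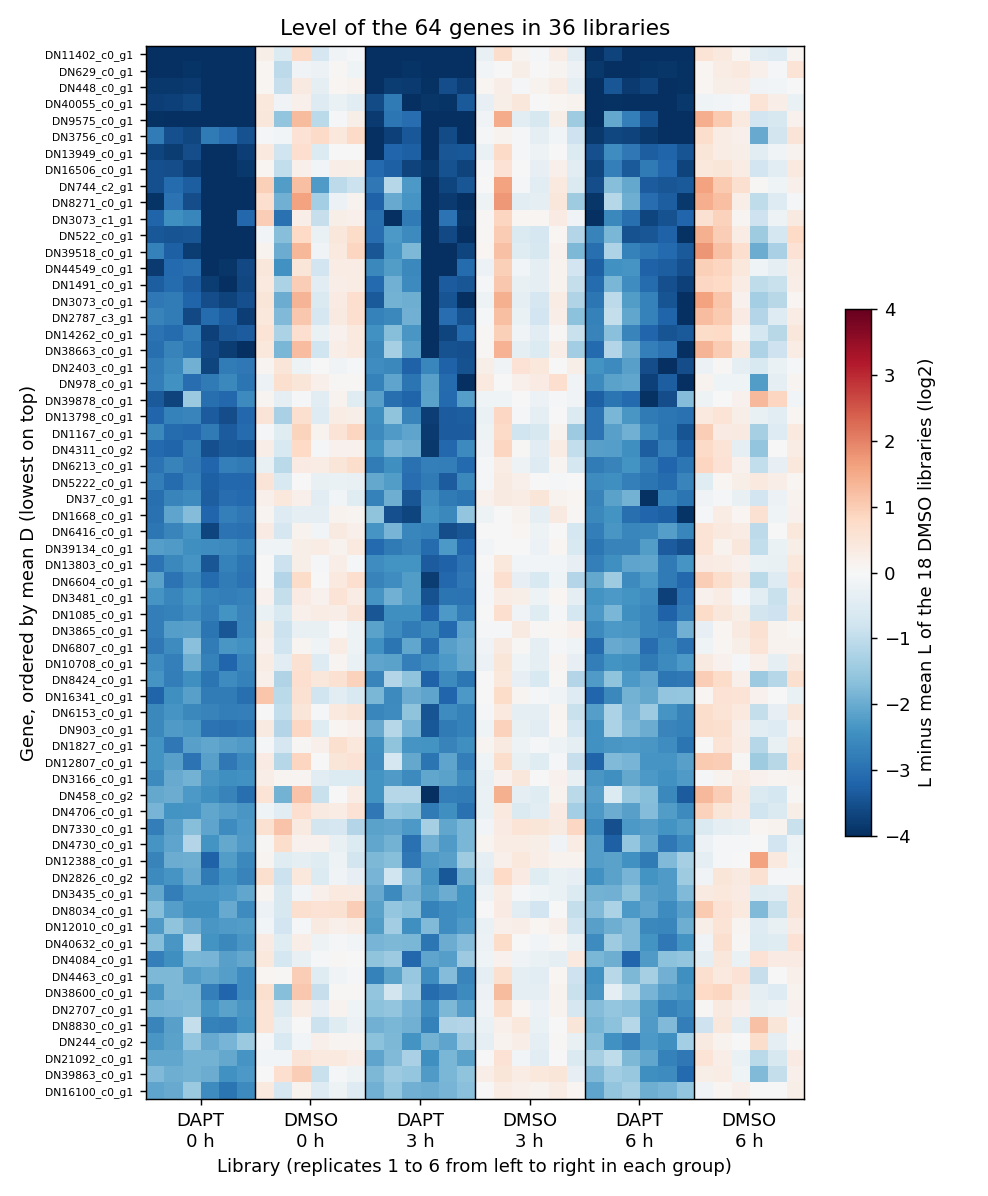
Level L of each of the 64 genes in each of the 36 libraries, as the difference from the gene's mean over the 18 DMSO libraries, in log2 units, with colours ending at 4 and -4. Genes run from the lowest mean D at the top to the highest at the bottom, and libraries stand in replicate order within each group. The DAPT columns are blue throughout, and some DMSO columns, such as replicate 2 at 0 h and replicate 6 at 3 h, are paler blue across many genes.

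The lowest D at each time belonged to DN11402_c0_g1. At 0 h its lowest, median and highest levels were 3.33, 5.52 and 6.88 CPM in DAPT, against 150.3, 187 and 271 CPM in DMSO. At 3 h they were 2.68, 4.60 and 8.05 CPM in DAPT, against 123, 190.1 and 247 CPM in DMSO. At 6 h they were 2.47, 5.85 and 12.8 CPM in DAPT, against 84.2, 208 and 267 CPM in DMSO. The highest DAPT library thus stayed far under the lowest DMSO library at each time. Its D was -5.15 (SE 0.29) at 0 h, -5.07 (SE 0.21) at 3 h and -4.81 (SE 0.32) at 6 h, so that its DAPT mean was 2.75%, 2.63% and 3.60% of its DMSO mean.

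Next in mean D came DN629_c0_g1. Its lowest, median and highest levels were 3.50, 5.44 and 5.67 CPM in DAPT at 0 h, against 54.8, 91.2 and 111 CPM in DMSO. At 3 h they were 1.28, 4.18 and 6.51 CPM in DAPT, against 72.0, 94.5 and 113 CPM in DMSO. The 6 h libraries had 3.79, 5.01 and 7.55 CPM in DAPT, against 66.9, 104 and 155 CPM in DMSO. No library of one treatment reached those of the other. D was -4.04 (SE 0.22), -4.37 (SE 0.21) and -4.25 (SE 0.11) at the 3 times.

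DN448_c0_g1 combined a very low D with replicates that lay close together. Its lowest, median and highest levels were 3.34, 4.18 and 5.36 CPM in DAPT at 0 h, against 45.2, 76.7 and 90.5 CPM in DMSO. By 6 h these levels were 2.91, 3.83 and 5.83 CPM in DAPT, against 39.7, 76.9 and 83.0 CPM in DMSO. The groups stood clear of each other by a wide gap. D was -4.02 (SE 0.24) at 0 h, -3.86 (SE 0.12) at 3 h and -3.99 (SE 0.17) at 6 h, and its mean CPM in DAPT stayed at 5.79%, 5.88% and 5.97% of that in DMSO.

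The most counted of the 64 genes were DN8271_c0_g1, DN744_c2_g1 and DN38600_c0_g1, with mean levels of 1464, 1423 and 667 CPM over the 36 libraries. CPM is not corrected for transcript length, and no lengths were used here, so these ranks are of counted reads. DN8271_c0_g1 had lowest, median and highest levels of 108, 149 and 282 CPM in DAPT at 0 h, against 685, 2454 and 5811 CPM in DMSO. At 6 h the same levels were 117, 244 and 925 CPM in DAPT, against 673, 2411 and 5977 CPM in DMSO. The DMSO libraries alone differed more than 8-fold from each other, and at 6 h the highest DAPT library lay above the lowest DMSO library in CPM, though not in L. Its D was -3.82 (SE 0.60) at 0 h, -3.40 (SE 0.64) at 3 h and -3.08 (SE 0.60) at 6 h.

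DN744_c2_g1 had lowest, median and highest levels of 41.1, 137 and 257 CPM in DAPT at 0 h, against 540.4, 1277 and 4257 CPM in DMSO. At 6 h, 163, 229 and 617 CPM were found in DAPT, against 1375, 3005 and 6553 CPM in DMSO. The treatments stayed apart, and replicates of 1 group differed severalfold. Its D was -3.77 (SE 0.82) at 0 h, -3.15 (SE 0.58) at 3 h and -3.45 (SE 0.43) at 6 h.

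DN38600_c0_g1 had lowest, median and highest levels of 153, 213 and 281 CPM in DAPT at 0 h, against 355, 1151 and 1792 CPM in DMSO. For 6 h the values were 149, 266 and 713 CPM in DAPT, against 471, 1215 and 1697 CPM in DMSO. At 0 h the groups were apart, and at 6 h they overlapped. Its D of -2.25 (SE 0.47), -1.96 (SE 0.48) and -1.91 (SE 0.40) left it with 20.3%, 25.4% and 29.1% of its DMSO mean, and the last 2 are the highest shares among the 64 genes at 3 h and 6 h.

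**Figure D3:**
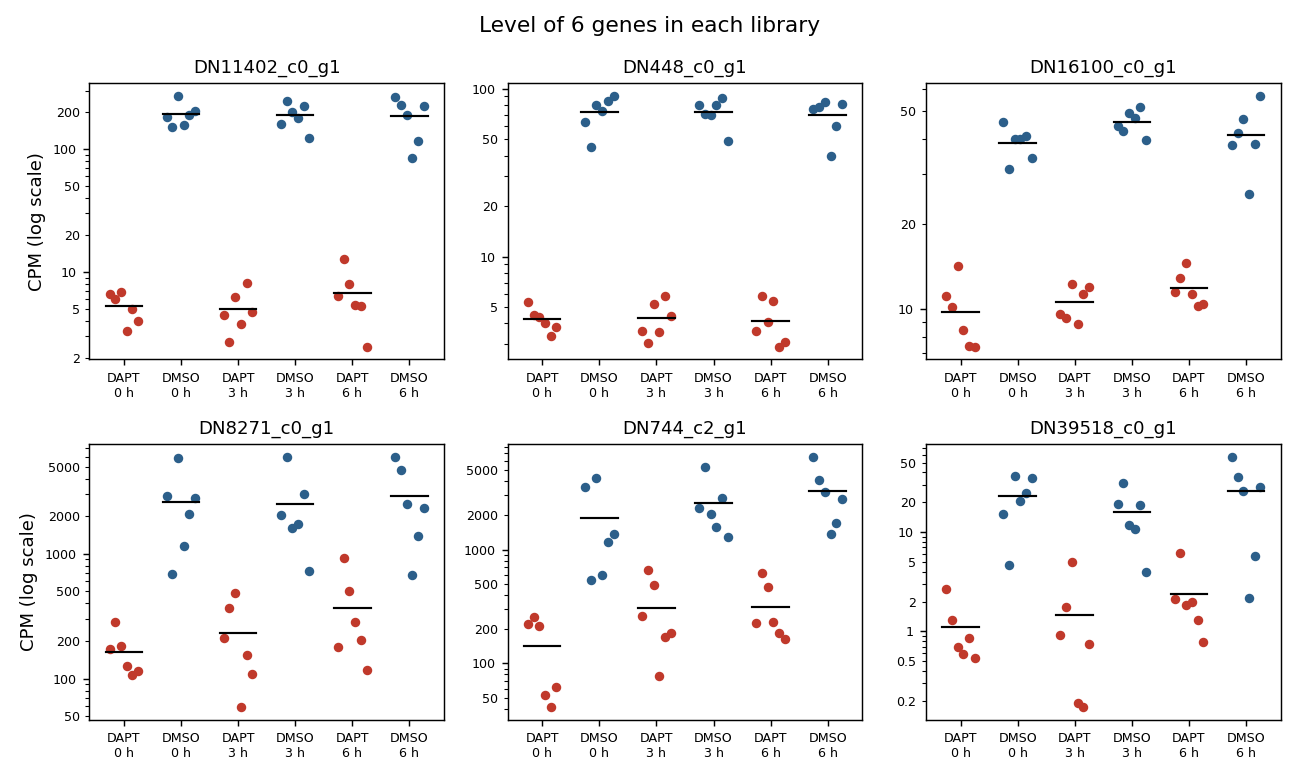
CPM on a log axis in each library for 6 of the 64 genes, with DAPT groups in red, DMSO groups in blue and a black line at each group mean. The 3 genes in the upper row have no overlap, and of these DN448_c0_g1 and DN16100_c0_g1 have close replicates. The 3 in the lower row include single DMSO libraries at a low level, such as DN39518_c0_g1 at 2.19 CPM in DMSO 6 h.

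At the other end of abundance stood DN8034_c0_g1, DN244_c0_g2 and DN12010_c0_g1, with 2.48, 3.07 and 3.42 mean CPM. DN8034_c0_g1 averaged 0.584 ± 0.355 CPM in DAPT and 5.83 ± 2.83 CPM in DMSO at 0 h (SD, n = 6 each). At 6 h it averaged 0.582 ± 0.430 CPM in DAPT and 4.48 ± 3.01 CPM in DMSO, where 1 DMSO library stood at 0.282 CPM and overlapped with DAPT. Its expected count in 1 library was only 0.55. Among the 64 genes, 35 had under 10 counts in at least 1 library, and the added 0.5 in the log holds D closer to 0 for such genes. DN12010_c0_g1, counted nearly as rarely, averaged 1.13 ± 0.244 CPM in DAPT and 6.47 ± 2.62 CPM in DMSO at 0 h, with a D of -2.11 (SE 0.21). By abundance, 7 of the 64 genes had at least 100 mean CPM, 32 had 10 to 100 CPM and 25 had less than 10 CPM. Their median D at 0 h was -3.30, -2.94 and -2.53 in that order. At 3 h it was -3.06, -2.83 and -2.23. At 6 h it was -2.82, -2.87 and -2.32, so the most counted class was not the lowest there.

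The limit of the rule cut through genes that differed little from each other. Just inside it, DN39863_c0_g1 had a D of -1.77 at 6 h, DN244_c0_g2 one of -1.78 at 3 h and DN16100_c0_g1 one of -1.80 at 6 h. Just outside it, DN14656_c0_g1 had D values of -1.88 at 0 h, -1.749 at 3 h and -2.15 at 6 h. DN3114_c0_g2 missed it with -1.74 at 6 h, and DN39848_c0_g1 with -1.74 at both 3 h and 6 h. DN3114_c0_g2 had 484 ± 164 CPM in DAPT and 2191 ± 755 CPM in DMSO at 0 h.

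In the 6 h after DAPT removal, D moved by less than 0.5 log2 units for most of the 64 genes and most of the 10405. The rule asked for a low D at all 3 times, so genes that returned above the limit are absent. D at 6 h minus D at 0 h had a median of 0.19 among the 64 genes, beside 0.01 among the 10405 genes. Its quartiles were -0.09 and 0.40 among the 64 genes, beside -0.22 and 0.22 among the 10405 genes. It was above 0, so closer to DMSO, for 41 genes (64.1%, beside 50.7% of the 10405 genes) and below 0 for 23, and for 49 genes it lay within 0.5 of 0. From 0 h to 3 h the median change was 0.17, beside 0.02 among the 10405 genes, with 48 of the 64 genes above 0, beside 53.0% of the 10405. The genes were picked for a low D at 0 h among other things, and of all 113 genes under the limit at 0 h, whatever their later values, 84 (74.3%) had a higher D at 6 h. Of the 10 genes with the lowest D at 0 h, 8 were among the 10 lowest at 3 h, 6 at 6 h and 5 at all times.

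The largest moves toward DMSO were those of DN39518_c0_g1, DN8271_c0_g1 and DN4311_c0_g2, at 0.93, 0.74 and 0.72. DN39518_c0_g1 had lowest, median and highest levels of 0.545, 0.777 and 2.65 CPM in DAPT at 0 h, against 4.67, 22.5 and 36.5 CPM in DMSO. Later, at 6 h, they were 0.775, 1.90 and 6.21 CPM in DAPT, against 2.19, 26.9 and 57.2 CPM in DMSO. The groups were apart at 0 h and overlapped at 6 h, with D at -3.81 (SE 0.53) and -2.88 (SE 0.67). DN4311_c0_g2 averaged 0.840 ± 0.190 CPM in DAPT and 12.6 ± 2.82 CPM in DMSO at 0 h, and 1.27 ± 0.764 CPM in DAPT and 11.0 ± 5.89 CPM in DMSO at 6 h.

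DN1668_c0_g1, DN39878_c0_g1 and DN3073_c1_g1 moved the other way, by -0.76, -0.74 and -0.55. DN1668_c0_g1 had lowest, median and highest levels of 2.16, 3.11 and 5.25 CPM in DAPT at 0 h, against 13.1, 18.7 and 24.3 CPM in DMSO. At 6 h they were 0.514, 1.78 and 3.59 CPM in DAPT, against 15.4, 19.2 and 24.8 CPM in DMSO. The DMSO libraries stayed in the same range while the lowest DAPT libraries of 6 h lay under all those of 0 h. D was -2.45 (SE 0.26) at 0 h and -3.21 (SE 0.25) at 6 h. DN39878_c0_g1 averaged 2.75 ± 1.76 CPM in DAPT and 17.3 ± 2.99 CPM in DMSO at 0 h, and 1.80 ± 1.09 CPM in DAPT and 21.6 ± 6.15 CPM in DMSO at 6 h.

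**Figure D4:**
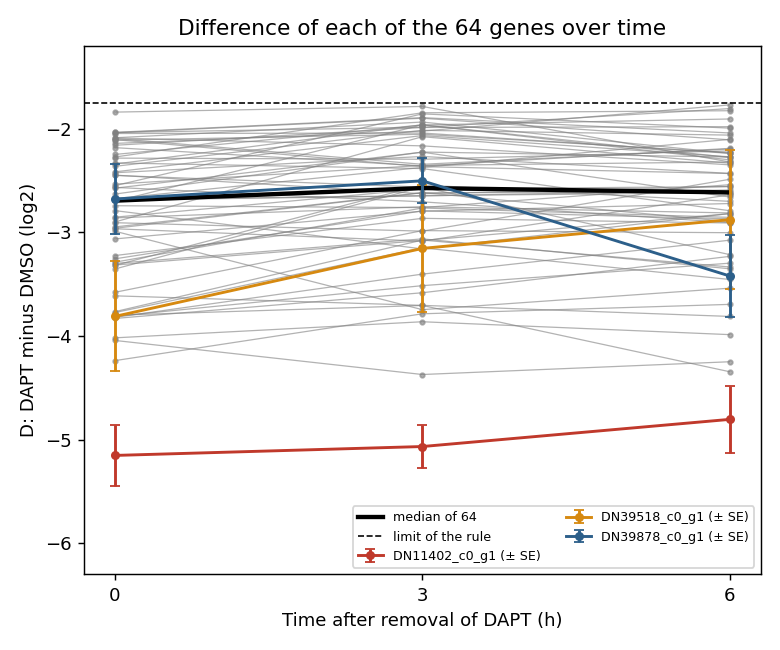
D (DAPT minus DMSO, log2) of each of the 64 genes at 0, 3 and 6 h after DAPT removal, with grey lines for single genes, a black line for their median and a dashed line at the limit of the rule. Coloured lines with bars of 1 SE mark DN11402_c0_g1, DN39518_c0_g1 and DN39878_c0_g1. The median stays between -2.69 and -2.57.

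Change over time within a treatment was not itself a contrast of the rule, but it is not free of the choice. A gene had to be low at all 3 times to be taken, so genes that had returned toward DMSO are absent, and the counts below are a description. edgeR's quasi-likelihood test found 0 of the 64 genes changed in DAPT at 3 h against DAPT at 0 h, where 0% of all 12253 tested genes were called. An unadjusted p under 0.05 was found for 3 of the 64 (4.69%), beside 8.66% of all tested genes. For DAPT at 6 h against DAPT at 0 h it also called 0 of 64, beside 0.539% of all tested genes, and 10 (15.6%) had an unadjusted p under 0.05, beside 14.2%. Within DMSO, neither the 3 h nor the 6 h libraries gave a call among the 64 genes against those of 0 h (0 of 64 each, beside 0% of all tested genes). An unadjusted p under 0.05 was found for 2 (3.13%) in each comparison, beside 9.25% of all tested genes at 3 h and 11.2% at 6 h. DESeq2 called 0 of the 64 in both DAPT comparisons and at 3 h in DMSO, and 0 of the 40 that it gave an adjusted p at 6 h in DMSO. Over all 12253 genes it called 45 and 275 in DAPT at 3 h and 6 h, and 2 and 11 in DMSO. With limma-voom 0 of the 64 were called in the 4 comparisons, where over all genes it called 129 in DAPT at 6 h and 0 in the others. The median SE of these log2 fold changes was 0.33 in the DAPT comparisons, which limits what could be detected in a single gene.

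The fitted log2 fold changes of DAPT at 6 h over DAPT at 0 h ran from -1.04 to 1.35 among the 64 genes with a median of 0.30, beside a median of -0.03 over all tested genes. At 3 h over 0 h in DAPT the median was 0.21, beside -0.01. In DMSO the medians of the 64 genes were -0.06 at 3 h and 0.07 at 6 h, beside -0.01 and -0.02 over all tested genes. The smallest p in DAPT belonged to DN3756_c0_g1, a gene singled out after its values were seen. It had 1.66 ± 0.664 CPM in DAPT at 6 h, against 3.87 ± 1.54 CPM in DAPT at 0 h (SD, n = 6 each), a log2 fold change of -1.04 (SE 0.35, edgeR adjusted p = 0.153). In DMSO the same gene had 34.4 ± 19.9 CPM at 6 h, against 50.1 ± 18.6 CPM at 0 h, a log2 fold change of -0.41 (SE 0.29, edgeR adjusted p = 0.561).

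Under another scaling 1 gene, DN40055_c0_g1, passed the threshold in DAPT. How many of all tested genes passed it under that scaling is not given here. With library totals in place of TMM factors its log2 fold change at 6 h over 0 h was -0.65 (SE 0.14, edgeR adjusted p = 0.0337), whereas with TMM factors it was -0.45 (SE 0.20, edgeR adjusted p = 0.301). Its lowest, median and highest levels were 5.18, 7.72 and 9.50 CPM in DAPT at 6 h, against 10.5, 11.7 and 14.0 CPM in DAPT at 0 h. The mean TMM factor was 1.15 in DAPT 0 h and 1.01 in DAPT 6 h, so the change of scaling shifted the fold changes of all genes. In CPM by library total the 6 h libraries of DN40055_c0_g1 all lay under the 0 h libraries. In DMSO its mean was 154 ± 12.5 CPM at 6 h, against 162 ± 16.3 CPM at 0 h.

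Replicates of the 64 genes spread more than those of most genes. The mean SD of L within a group had a median of 0.47 among the 64 genes, beside 0.35 among the 10405 genes. It lay above the upper quartile of the 10405 genes for 33 of the 64. The 16 genes with the largest SD (median 0.82) had a median 7.39-fold span between the lowest and the highest DMSO 0 h library. For the 16 genes with the smallest SD (median 0.34) that span was 2.14-fold. The largest SDs were those of DN744_c2_g1, DN8271_c0_g1 and DN39518_c0_g1, and the smallest those of DN3166_c0_g1, DN16100_c0_g1 and DN448_c0_g1.

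DN3166_c0_g1 shows how narrow the spread could be. Its lowest, median and highest levels were 7.85, 9.57 and 10.3 CPM in DAPT at 0 h, against 31.6, 39.3 and 52.1 CPM in DMSO. At 3 h they were 5.38, 6.93 and 9.06 CPM in DAPT, against 29.7, 39.3 and 57.1 CPM in DMSO. At 6 h they were 6.10, 7.52 and 9.60 CPM in DAPT, against 28.1, 41.0 and 51.1 CPM in DMSO. All DAPT libraries lay at about the same low level and all DMSO libraries well above them. D was -2.10 (SE 0.18), -2.36 (SE 0.14) and -2.43 (SE 0.07). DN16100_c0_g1 was the gene with the highest mean D, and it too kept the groups apart at each time. It averaged 9.80 ± 2.65 CPM in DAPT and 38.7 ± 5.21 CPM in DMSO at 0 h, and 11.8 ± 1.66 CPM in DAPT and 41.2 ± 10.3 CPM in DMSO at 6 h.

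The spread was shared between genes, and the same libraries were high or low for many of them. DAPT 6 h replicate 2 was the highest of its group for 35 of the 64 genes, and DAPT 3 h replicate 4 the lowest of its group for 33. Among the DMSO libraries, replicate 2 at 0 h was the lowest of its group for 48 genes and replicate 6 at 3 h for 48. DMSO 3 h replicate 2 was the highest of its group for 44, and DMSO 6 h replicate 4 the lowest for 35. The last of these also had the lowest TMM factor of the series, 0.6263. For the 16 genes with the largest SD, the median deviation from the group mean was 1.31 log2 units in DAPT 6 h replicate 2 and -1.71 in DMSO 0 h replicate 2, and all 16 deviated the same way in each of these libraries. Across the 10405 genes the median deviation in DMSO 0 h replicate 2 was -0.04. L is centred on the median of each column, so that value is small in any library and tells nothing about this one. What sets these libraries apart was not tested. The rule kept 57 of the 64 genes whichever replicate number was left out of all groups.

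The choice and the test of direction were next made in different replicates. Both sets of libraries had entered the choice of the 64 genes, and what a replicate number marks is not given. Independence of the sets is therefore not established, and the counts below show how far they gave the same genes. The rule was applied to replicates 1, 3 and 5 alone, and the genes it took were tested with edgeR in replicates 2, 4 and 6 alone. It took 71 genes, of which 61 are among the 64. In the even-numbered replicates 58 of the 71 were called lower in DAPT at 0 h, 53 at 3 h and 46 at 6 h, beside 1.15%, 0.939% and 1.07% of all 12242 genes tested there. At all 3 times 44 were called, beside at most 0.939% of all genes tested there, since no more than that were called at 3 h. At no time were 12 called, and the share of all genes called at none is not given here. All 71 had a fitted log2 fold change below 0 at each time, and their median D was -2.51 (0 h), -2.46 (3 h) and -2.49 (6 h), beside medians of 0.09, 0.08 and 0.03 over all genes of sufficient level.

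The 13 genes that were not called in the even-numbered replicates at 0 h had a median D of -2.11 there, against -2.56 for the 58 called. Their median SD of L over all libraries was 0.832, against 0.434, a value that includes the libraries of the calls and so is not independent of them. Of the 9 genes of that list with at least 100 mean CPM, 7 were not called at 0 h, 7 at 3 h and 7 at 6 h. DN8271_c0_g1 is an example, with a log2 fold change of -3.03 (SE 1.01, edgeR adjusted p = 0.202) in the even-numbered replicates at 0 h. DN11402_c0_g1 had -5.16 (SE 0.53) in the same libraries. It was named for its lowest mean D over all 36 libraries, these included, so this value is a description with no test.

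In the other direction, replicates 2, 4 and 6 chose 57 genes, all of them among the 64. In the odd-numbered replicates 57 were called lower in DAPT at 0 h, 56 at 3 h and 56 at 6 h by edgeR, beside 2.79%, 1.96% and 1.83% of all 12264 genes tested there. The gene missing at 3 h and 6 h was DN8830_c0_g1. The median D in the odd-numbered replicates was -2.97, -2.69 and -2.71 at the 3 times. The lists of the odd-numbered and the even-numbered replicates shared 54 genes, 54 of 71 and 54 of 57.

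**Figure D5:**
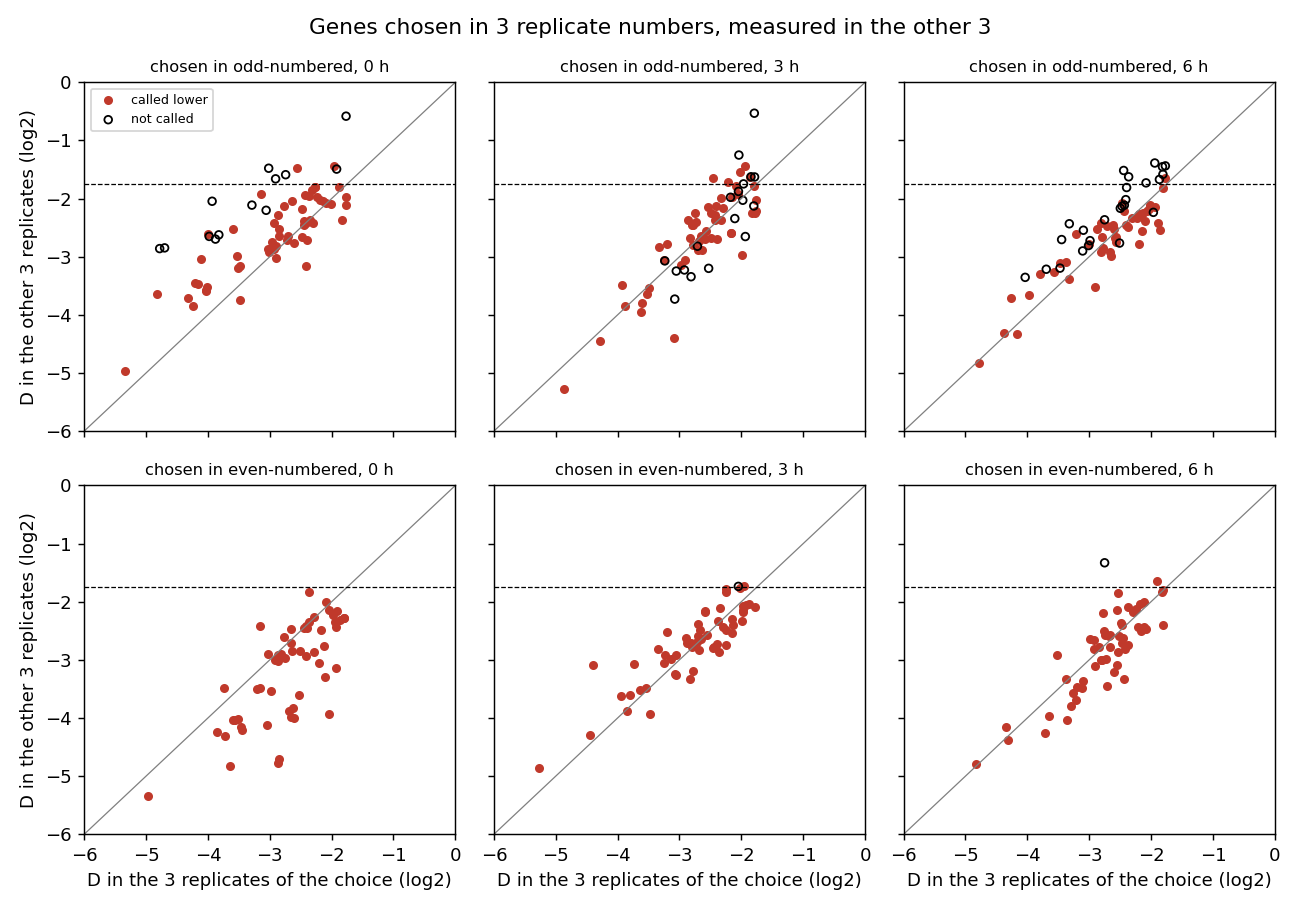
D of genes chosen in 3 replicate numbers (horizontal axis, log2) and measured in the other 3 (vertical axis, log2), at 0, 3 and 6 h, with genes chosen in the odd-numbered replicates in the upper row and in the even-numbered ones in the lower row. Filled red points were called lower in DAPT by edgeR in the replicates not used for the choice, open points were not, the diagonal marks equal values and the dashed line the limit. All points lie below 0, and the called genes number 58, 53 and 46 in the upper row and 57, 56 and 56 in the lower row.

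The assembly links some of the 64 genes to others in the table. None shared a component with another of the 64. The number DN3073 was shared by DN3073_c0_g1 and DN3073_c1_g1, named here after their values were seen. DN3073_c0_g1 averaged 17.3 ± 4.12 CPM in DAPT and 194 ± 100.5 CPM in DMSO at 0 h, with a D of -3.32 (SE 0.50). DN3073_c1_g1 averaged 10.5 ± 4.46 CPM in DAPT and 94.2 ± 49.2 CPM in DMSO at 0 h, with a D of -2.99 (SE 0.67). The second of these overlapped at 0 h, where 1 DMSO library had 13.3 CPM and the highest DAPT library 16.2 CPM.

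In all, 11 of the 64 genes had another gene with their DN number in the table, and 14 of these relatives were not among the 64. Lower calls by edgeR in DAPT were made for 11 of the 14 relatives at 0 h, for 7 at 3 h and for 6 at 6 h. Of all tested genes 5.64%, 4.85% and 3.94% were called lower at these times. Of the 14 relatives 0 were called higher at any time. No share over all genes stands beside this count, so it is not read as a result about the relatives. A relative at 1.28 mean CPM lies under the floor of 2 mean CPM and so is not among the 10405 genes used next. All 3 D values were under 0 for 11 of the 14, which held for 17.3% of the 10405 genes, and all 3 were at or under -1 for 7 of the 14, which held for 2.20%. DN744_c0_g1, a relative of DN744_c2_g1, had 6162 ± 1873 CPM in DAPT and 20765 ± 11312 CPM in DMSO at 0 h (D -1.65, edgeR adjusted p = 0.0100), but at 3 h and 6 h it was not called (D -1.24 and -1.16, edgeR adjusted p = 0.166 and 0.296). DN2787_c2_g1, a relative of DN2787_c3_g1, had 10467 ± 2046 CPM in DAPT and 21512 ± 6554 CPM in DMSO at 0 h (D -1.07, edgeR adjusted p = 0.0171). DN2403_c0_g2, a relative of DN2403_c0_g1, had 25.2 ± 4.43 CPM in DAPT and 75.9 ± 15.1 CPM in DMSO at 0 h (D -1.64, edgeR adjusted p = 1.16e-07). Not every relative was lower: DN2787_c0_g1, with the same DN number as DN2787_c2_g1, had D values of 0.19, 0.35 and -0.03. It was called at no time. These 4 relatives were named after their values were seen. No sequences were at hand, so whether genes with the same DN number share sequence is not known. Expected counts divide reads between copies that are near-identical. The values of the 11 genes and their relatives may thus be uncertain and are not taken as independent of each other.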

How the data were processed

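Total RNA of whole polyps was sequenced as strand-specific mRNA libraries on 3 lanes with a 100 bp strategy, per the labels' protocols, after trimming and removal of reads under quality 20 or 30 bp. The authors deposited expected counts (estimated counts that need not be whole; 98.95% were not) per gene for 36 libraries. RSEM, Bowtie2 and DESeq2 1.18.1 are named, with no roles, per the submitters' processing notes. The making of the Trinity assembly and the lane of each sample are not given in the sources read for this work, and no lane was used as a term.

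From these counts, CPM, L and D were computed with Python 3.11.15, with a pseudocount of 0.5 and a floor of 2 mean CPM. The choice of the 64 genes and the lists were made with earlier results of these data known. Rounded counts were tested with edgeR 4.0.16 in R 4.3.3 (filterByExpr, TMM factors, quasi-likelihood F test), in 1 fit of 6 group means over 36 libraries for the full set and in 18 libraries for the odd-numbered or even-numbered replicates. Calls had a Benjamini-Hochberg adjusted p under 0.05 over all tested genes. DESeq2 1.42.0, limma 3.58.1, other scalings and left-out replicates were alternatives. The fits and the rule were tested on simulated data.

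CPM are given as mean ± SD, and D with the SE from both groups' SDs. No pair of replicates of a group agreed within sampling noise, with a chi-square per degree of freedom of 9.94 or more over 90 pairs. The labels call the replicates biological and do not say what a replicate number marks. For 11 of 18 same-numbered DAPT and DMSO libraries of a time the deviations from the group means correlated over 0.1. The range was -0.63 to 0.57, and 5 of 18 correlated best with their own number. Pairing was thus not settled, and the main fits did not pair samples by number.

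Genes named are, 3 each, those with the highest and lowest mean CPM, the lowest mean D, the largest and smallest change of D to 6 h and SD, and those nearest the limit on both sides; others are said to be named after their values were seen or serve as examples of them.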

Additional observations from a re-analysis of the deposited data

Results flagged for a closer look

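Among 114 groups of 6 libraries checked for the named genes, 3 held a library whose gap to the nearest other was more than 0.625 of the group's range. If the checks were independent, chance would give about 1 in 20, or 5.7 of 114. The checks share libraries and many of the genes were named for extreme values, so 3 cannot be set against that number. In DAPT 6 h replicate 2, DN39518_c0_g1 stood at 6.21 CPM, with the other 5 libraries between 0.775 and 2.10 CPM. In DMSO 0 h replicate 2, DN629_c0_g1 stood at 54.8 CPM, with the others between 74.0 and 110.9 CPM. In DMSO 3 h replicate 6, DN39863_c0_g1 stood at 11.5 CPM, with the others between 18.7 and 23.2 CPM. The same 3 libraries were the extreme ones for 35, 48 and 48 of the 64 genes.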

How the results depend on the processing

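The rule took 74 genes with a pseudocount of 0.25 and 54 with 1, 95 with a limit of -1.5 and 52 with -2, and 51 with a floor of 5 mean CPM. TMM scaling gave 73, column totals 66, medians over replicates 69, and leaving out DMSO 6 h replicate 4 gave 69. It took 61 to 70 genes when any 1 replicate number was left out of all groups. With edgeR's fitted log2 fold changes in place of D it took 92 with the replicate block and 89 without it, the second of these chosen after seeing the data. Same-numbered DAPT and DMSO libraries of a time correlated between -0.63 and 0.57 in their deviations from the group means, and 5 of 18 correlated best with their own number; the block changed no call of the 64 genes. With 1 replicate number left out, 62 to 64 genes were called lower at 6 h and 64 at 0 h and 3 h. These calls follow from the choice of the genes, and the share over all tested genes is not given for them. The number changed within DAPT at 6 h was 1 with library totals, in place of 0, and 0 in all other alternatives, and without each replicate number it stayed 0. Of 140 counts under alternatives, 139 stayed within 1.5 times, and of 780 D values of named genes 15 moved by more than the replicate SD and 0 changed sign; 14 of the 15 came from the fit with the replicate block. Low counts limit the precision of the rarest genes.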
